A study of Rattus norvegicus with 35 samples.

Results

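The Wnt family and its reception were examined in rat olfactory epithelium: the secreted Wnt ligands, the Frizzled receptors (Fzd) and the secreted antagonists of the Sfrp (secreted frizzled-related protein) and Dkk (Dickkopf) families. Members were taken by name, as every non-control probe of the array whose gene name begins with Wnt, Fzd, Sfrp or Dkk. This gave 33 genes on 46 probes, of 35561 names on 41012 probes. There were 18 ligands on 24 probes, 8 receptors on 9 probes and 7 antagonists on 13 probes.

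RNA of 27 Brown Norway rats was measured on 35 single-colour Agilent arrays that cover the rat genome. The 19 newborn rats, aged 3 to 5 days and of unknown sex, gave 1 array each and came from litters L1 (4 pups), L2, L3 and L4 (5 pups each). The 4 adult rats, aged 9 weeks, and the 4 old rats, aged 22 months, were males and gave 2 arrays each, which were averaged. The tissue was whole dissected epithelium and holds several cell types, so fewer cells of a type and less RNA per cell cannot be told apart.

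Wnt proteins are lipid-modified signals that act over short distances by binding a Frizzled receptor together with a co-receptor of the Lrp family. In the best known branch the signal spares beta-catenin from destruction, and beta-catenin then switches on target genes with factors of the Tcf and Lef family, whereas other branches set cell polarity and movement. The olfactory epithelium replaces its sensory neurons from basal cells throughout life, and Wnt signalling is known there for its part in basal cell proliferation and in the growth of sensory axons.

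A level is given here as the log2 of the background-subtracted intensity over the median of its array, so that 0 stands for the array median. A probe counts as above background on an array if the scanner software marked its spot as significantly positive, as well above the local background and as uniform, without saturation. A probe was expressed in a litter when at least 3 arrays were above background, and in adult or old rats when at least 6 of 8 were. Array medians ran, in intensity units, from 42.1 to 87.7 in newborn rats, from 81.6 to 162 in adult rats and from 37.1 to 55.3 in old rats, and the number of arrays limits the precision. All 8 markers of mature olfactory sensory neurons were expressed in each of the 6 groups.

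Of the 33 genes, 20 had a probe expressed in all 6 groups (4 litters, adult and old rats), 5 in some of the groups and 8 in none. Among the ligands, Wnt2b, Wnt4, Wnt5a, Wnt5b, Wnt6, Wnt7a, Wnt7b, Wnt10a and Wnt11 were expressed in all groups. Wnt2 and Wnt9a were expressed in some groups, and 7 ligands were expressed in none. Of these 7, the signals of Wnt3a, Wnt8a, Wnt8b and Wnt9b were above background on no array, and those of Wnt1, Wnt3 and Wnt10b on no more than 1 array of any group. The receptors Fzd1, Fzd2, Fzd3, Fzd7 and Fzd9 were expressed in all groups, Fzd4 in all but L2, and Fzd5 in L1, L2 and L3. The probe for Fzd6 was above background on 1 adult array. All 4 Sfrp genes, Dkk1 and Dkk3 were expressed in all groups, and the gene the array calls Dkk4 in the 4 litters. A probe below background shows only that its transcript was not detectable on these arrays.

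**Figure D1:**
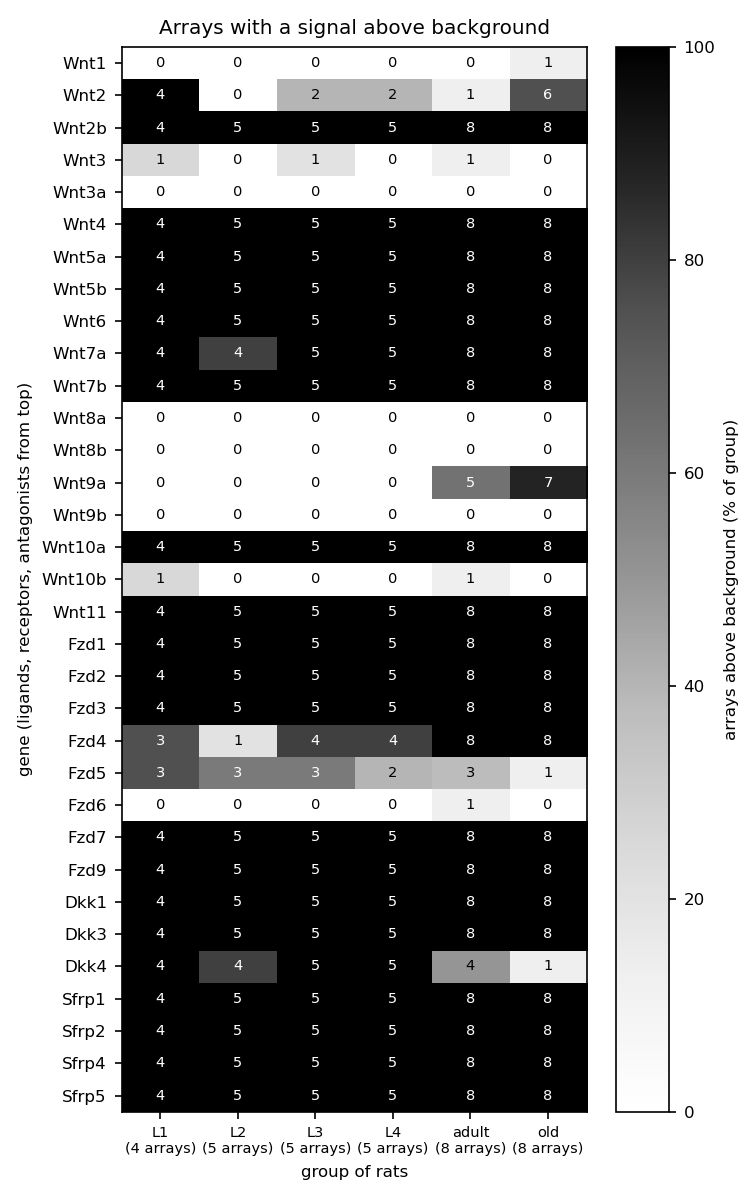
Number of arrays above background for each of the 33 genes (lines) in each group of rats (columns), for the probe of the gene with the most such arrays in that group, with grey giving the share of the group's arrays in percent. Wnt9a was above background on 5 of 8 adult and 7 of 8 old arrays and on no newborn array, and Fzd4 on 1 of 5 arrays of L2.

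The ages were compared with limma in a fit over the 6 groups, with equal weight for each of the 4 litters in the newborn value, and a probe was called at an adjusted p under 0.01. In this fit pups of a litter counted as replicates. Its SE and p values rest on the spread within groups and leave out variation between litters. Counts of calls are over the 25 member probes expressed in all 6 groups, beside the percentage called among the 23668 probes of the array expressed in all 6 groups. Between newborn and adult rats 14 of the 25 were called (65.6% of all probes), with 9 higher (39.3%) and 5 lower (26.3%) in newborn rats. Between newborn and old rats 10 were called (59.4%), with 8 higher (28.1%) and 2 lower (31.3%) in newborn rats. When each litter entered as a single mean, 13 were called against adult rats (53.7%) and 9 against old rats (44.7%). Between adult and old rats 8 were called (46.3%), with 5 higher (15.5%) and 3 lower (30.8%) in adult rats. With a fold of at least 5 as a second condition, 1 member was called in newborn against adult rats, Fzd9 (2.18% of all probes). Under that condition 2.83% of all probes were called between newborn and old rats and 0.321% between adult and old rats, and the largest called changes among the 25 probes in those comparisons were 4.70-fold and 2.93-fold. Fzd9 in newborn minus adult rats did not keep a fold of 5 in every alternative. For example, its log2 difference was 2.24 with the median change of all probes subtracted and 1.35 with normexp followed by quantile normalization. With the 75th percentile of each array the median change of all probes in this comparison was 0.03 in place of 0.16, so changes against adult rats were lower there too.

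The median log2 change of the 25 member probes was 0.39 for newborn minus adult, 0.30 for newborn minus old and 0.09 for adult minus old rats. Over all probes tested it was 0.16, −0.03 and −0.17, and with quantile normalization in place of the array median it was 0.00, −0.04 and −0.01. The median of the members in adult minus old rats rested on single rats, being 0.02 without old rat 18, 0.03 without adult rat 16 and 0.15 without adult rat 13. With quantile normalization the members' medians were 0.39, 0.24 and 0.15, and with the 75th percentile those against adult and of adult minus old rats were 0.25 and 0.17. With another background correction (normexp) followed by quantile normalization they were 0.22, 0.20 and 0.08. For L1 alone minus the old rats, which were scanned on the same day, the members' median was 0.18. A change given below as relative to all probes has the median over all probes tested, under the array-median scaling, subtracted (0.16, −0.03 and −0.17). The 30 member changes called with a fold of at least 2 were all larger than these medians, so this subtraction could not change their direction. The scaling also moved the split of calls over the whole array. Of the probes called in newborn against adult rats 59.9% were higher in newborn rats, and 47.3% with quantile normalization, and of those called in adult against old rats 33.5% were higher in adult rats, and 50.4% with quantile normalization.

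In total 10 slides were scanned over 5 days. No other group was scanned on the days of the adult rats, so that age and scan day cannot be told apart in comparisons with them, and these differences were refitted with slide or scan day as a random block. A call kept under such a block does not separate age from scan day either. The adult files also came from another software release (9.5.1.1 against 9.5.3.1). L1 and the old rats shared a day, and for newborn against old rats the difference between L1 alone and the old rats within that day is given as well for most members.

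**Figure D2:**
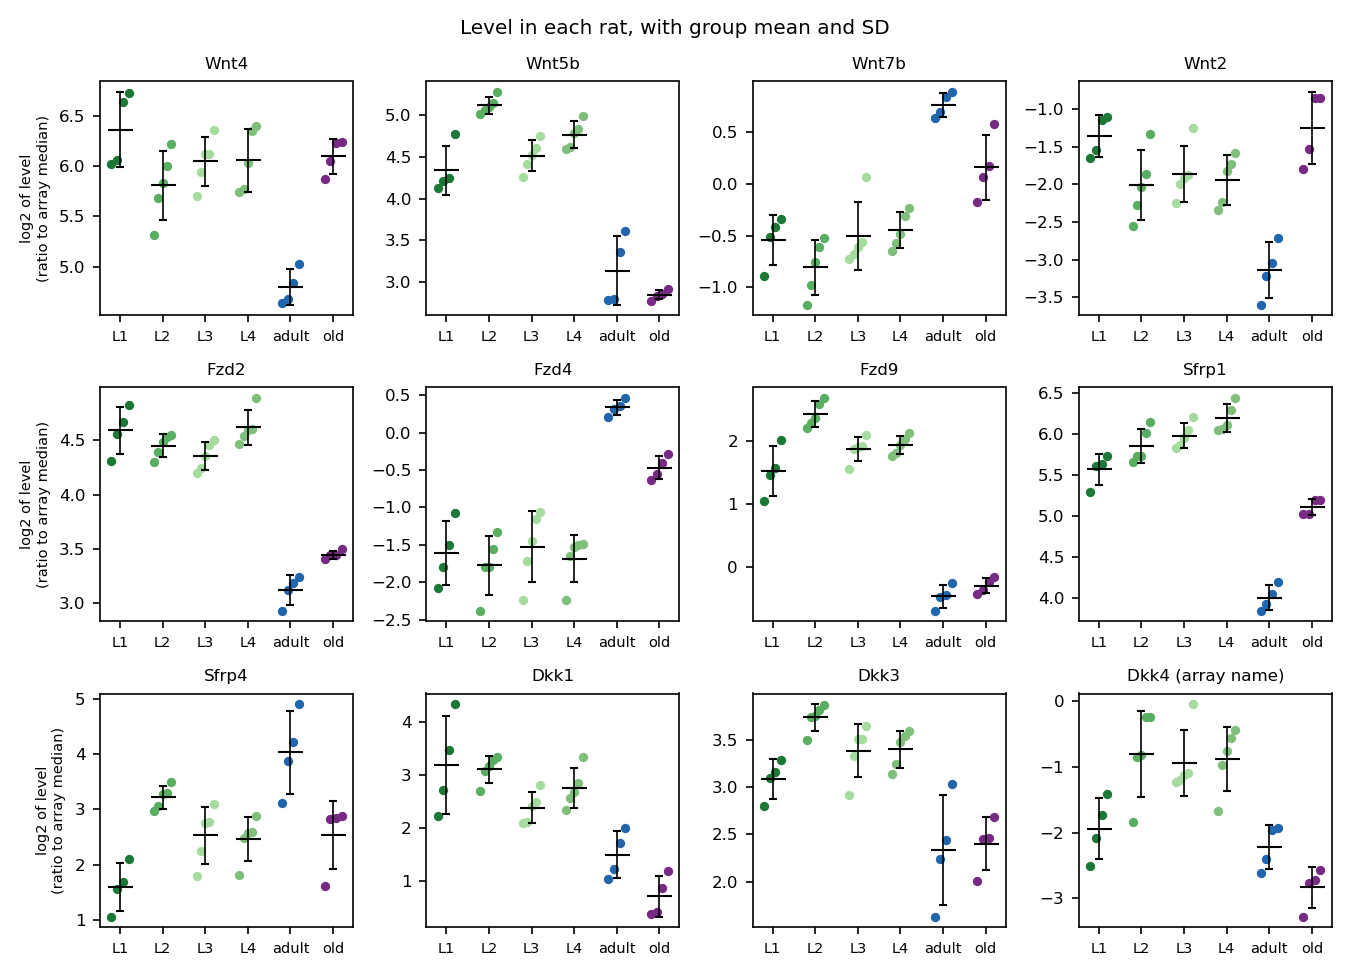
Level of 12 members in each rat (points), as log2 of the ratio to the array median, in litters L1 to L4, adult and old rats, with the mean of the group (long bar) and its SD (short bars). All 19 newborn rats lie above all adult and old rats for Wnt5b, Fzd2, Fzd9, Sfrp1 and Dkk1 and below all of them for Fzd4, and the sign of these changes was the same with the 75th percentile, quantile normalization, and normexp followed by quantile normalization.

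Wnt4, a ligand known for its part in the formation of kidney tubules and the female reproductive tract, was low in adult rats. Its level was between 5.31 and 6.73 in newborn rats (median 6.03), 4.64, 4.68, 4.84 and 5.03 in the adult rats and 5.87, 6.05, 6.23 and 6.24 in the old rats. Every adult rat lay below every newborn and every old rat, while newborn and old rats overlapped. Newborn rats exceeded adult rats 2.41-fold (log2 difference 1.27 ± 0.15 SE, 1.11 relative to all probes, adjusted p = 1.01e-07). Old rats exceeded adult rats 2.46-fold (log2 difference of adult minus old −1.30 ± 0.20, −1.13 relative to all probes, adjusted p = 7.12e-06). With scan day as a random block these adjusted p values were 3.18e-06 and 0.000222. The probe lies on chr5:156092825-156092884 in the coordinates of the files, build rn3.

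Wnt5b, which is known for its part in cartilage growth and does not rely on beta-catenin, was high in newborn rats alone. The probe with the higher signal gave 4.13 to 5.28 in newborn rats (median 4.75), 2.79, 2.80, 3.36 and 3.61 in adult rats and 2.78, 2.84, 2.86 and 2.92 in old rats. All 19 newborn rats were above all 8 older rats, and adult and old rats overlapped. The excess was 2.92-fold over adult rats (log2 difference 1.55 ± 0.12 SE, 1.38 relative to all probes, adjusted p = 8.73e-11) and 3.58-fold over old rats (1.84 ± 0.12, 1.87 relative to all probes, adjusted p = 7.2e-12). Within the shared scan day, L1 exceeded the old rats by 1.49 (adjusted p = 7.82e-05). A second Wnt5b probe gave log2 differences of 1.13 (adjusted p = 1.35e-07) and 1.59 (adjusted p = 7.2e-10; 1.17 for L1 within the shared day, adjusted p = 0.000465) in the same comparisons, and 18 of 19 newborn rats were above every adult rat.

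Wnt5a, the classical ligand of the branches without beta-catenin and a known stimulus of olfactory axon growth, ran from −0.57 to 1.0 in newborn rats (median −0.01). The adult rats had −1.29, −1.19, −0.75 and −0.34 and the old rats −0.85, −0.70, −0.60 and 0.07. The groups overlapped, although all 19 newborn rats lay above the adult mean. The difference between newborn and adult rats was 1.98-fold (log2 0.99 ± 0.22 SE, 0.82 relative to all probes, adjusted p = 0.000309), and only 0.47 on the log2 scale with normexp followed by quantile normalization. Against old rats it was 0.61 and missed the threshold (adjusted p = 0.016), which it passed without L1 rat 12, L4 rat 34 or old rat 19 (adjusted p = 0.00848, 0.0058 and 0.00473).

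Wnt7b, a ligand needed for lung growth and for the vessels of the brain, was low in newborn rats. Its level was −1.17 to 0.07 in newborn rats (median −0.57), 0.64, 0.70, 0.84 and 0.89 in adult rats and −0.17, 0.07, 0.17 and 0.58 in old rats. Adult rats were above all others, and newborn and old rats overlapped in a single pup of L3. The log2 difference of newborn minus adult rats was −1.34 ± 0.14 (SE, 2.54-fold, −1.5 relative to all probes, adjusted p = 6.34e-09) and that of newborn minus old rats −0.74 ± 0.14 (1.67-fold, −0.71 relative to all probes, adjusted p = 5.06e-05). Within the shared scan day, L1 minus old rats gave −0.70 (adjusted p = 0.0103). Adult rats exceeded old rats 1.52-fold (log2 0.60 ± 0.18, 0.77 relative to all probes, adjusted p = 0.0054). That last call was lost without adult rat 13 or 15 or old rat 17, 18 or 19 (adjusted p from 0.0121 to 0.0277) and with scan day as a random block (0.0416).

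Wnt2 and Wnt9a, known for lung formation and for joint formation, were near the limit of detection. Where many or all arrays of a group lacked a usable signal from a probe, a fold, if printed, is or comes with a lower bound, which holds only for the background subtraction of the scanner software. For it each array of that group was assigned the lowest level that any well detected probe had on it, unless the probe itself was higher. The probe of Wnt2 with the higher signal was above background on all 4 arrays of L1, 2 each of L3 and L4, 6 of the old rats and none of L2 or the adult rats, and a second probe, expressed in no group, on 2 arrays of L1, 1 adult and 1 old array. The level of the former was −2.56 to −1.10 in newborn rats (median −1.86), −3.60, −3.22, −3.04 and −2.71 in adult rats and −1.79, −1.53, −0.85 and −0.85 in old rats. All adult rats lay below all others. Old rats exceeded adult rats at least 2.11-fold, and with normexp followed by quantile normalization the log2 difference of adult minus old rats was only −0.23. The probe was expressed only in L1 and old rats, and as most newborn arrays were not above background no fold is given for them.

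Wnt9a was above background on 0 of 19 newborn arrays, 5 adult and 7 old arrays. The level was −3.80 to −2.37 in newborn rats (median −3.04), −2.57, −2.20, −2.12 and −1.94 in adult rats and −2.03, −2.0, −1.99 and −1.71 in old rats. Newborn rats were below all old rats and, in 18 of 19 cases, below all adult rats. The probe was expressed in old rats alone, where the excess over newborn rats was at least 1.30-fold, and with normexp followed by quantile normalization newborn minus old rats was only −0.15. On rn3 the probe for Wnt9a lies 55.7 kb from that for Wnt3a on chromosome 10, whose signal was above background on no array.

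Wnt11, a ligand that guides cell movement in the embryo, could not be compared with adult rats on its brighter probe. All 8 adult spots of that probe had been marked as not uniform by the scanner software and were left out. Their intensities were 647 to 1844 on the first adult slide and 63863 to 225702 on the second, against 313 to 687 on the arrays of all other rats. In the other groups the level was 2.79 to 3.35 in newborn rats (median 3.14) and 2.89, 3.11, 3.72 and 3.78 in old rats, which overlapped (log2 difference −0.27, adjusted p = 0.0854; −0.43 and 0.00882 without old rat 20). A second Wnt11 probe, used for this reason after its values were seen, gave 0.81 to 1.86 in newborn rats (median 1.30), 0.41, 0.90, 1.01 and 1.5 in adult rats and 1.23, 1.24, 1.30 and 1.53 in old rats. On this probe all groups overlapped, and the adjusted p was 0.0608 for newborn against adult and 0.183 for adult against old rats. The sequences of both probes, on the plus strand of rn3 chromosome 1 (chr1:156200779-156200838 and chr1:156216591-156216650), show what each spot measured.
Wnt11 brighter probe: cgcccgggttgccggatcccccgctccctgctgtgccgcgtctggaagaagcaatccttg
Wnt11 second probe: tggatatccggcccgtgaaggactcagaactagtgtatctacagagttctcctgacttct

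Wnt10a, Wnt7a and Wnt6, ligands known from teeth and skin appendages, limb patterning and kidney epithelium, varied among pups within litters. The SD in L1, L2, L3 and L4 was 2.27, 1.06, 0.70 and 1.12 for Wnt10a, 0.85, 1.26, 1.11 and 1.5 for Wnt7a and 1.73, 0.40, 0.46 and 0.92 for Wnt6. In L1 the level of Wnt10a was 5.02, 1.37, 5.95 and 1.90 in rats 9, 10, 11 and 12, that of Wnt7a 2.31, 0.73, 2.54 and 1.35, and that of Wnt6 2.34, 0.51, 3.71 and −0.06. Rats 9 and 11 were the high ones for all of these ligands. Over all newborn rats Wnt10a ran from 0.12 to 5.95, against 0.58 to 1.77 in adult and 1.32 to 1.93 in old rats. None of these 3 genes was called in an age comparison (newborn against adult, adjusted p = 0.149 for Wnt10a, 0.0394 for Wnt7a and 0.26 for Wnt6). For Wnt6 all adult rats lay below all old rats, which missed the threshold (adult minus old −0.55, adjusted p = 0.41) and passed it with only these groups in the fit (adjusted p = 0.00551). L1 alone exceeded the old rats for the brightest Wnt7a probe within the shared scan day (1.56, adjusted p = 0.00785), and the other Wnt7a probes were above background on only 1 and 4 of 8 old arrays. The probe for Wnt6 lies 18.7 kb from the dimmer Wnt10a probe on rn3 chromosome 9, which is not the Wnt10a probe whose levels are given here. The summed level of the 4 horizontal basal cell markers (Krt5, Krt14, Trp63 and Icam1, with the highest signal from Krt14), in multiples of the array median, was 1420, 275, 2100 and 221 in the same rats, 249 to 899 in the other pups, 257 to 303 in adult and 551 to 676 in old rats, and its part in the ligands' values was not tested.

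Wnt2b was expressed in every group and was not called in an age comparison (newborn minus adult −0.58, adjusted p = 0.0282; adult minus old 0.71, adjusted p = 0.0443). The former passed without adult rat 13 (−0.77, adjusted p = 0.0097) and with the 75th percentile in place of the array median (−0.71, adjusted p = 0.0068).

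Among the receptors, Fzd9, which is known from bone formation and the hippocampus, had the largest fitted change of any member against newborn rats, though not with normexp followed by quantile normalization, where Sfrp4, Wnt5b, Sfrp1 and Dkk1 exceeded it. Its level was 1.05 to 2.68 in newborn rats (median 1.94), −0.69, −0.47, −0.44 and −0.25 in adult rats and −0.42, −0.36, −0.24 and −0.16 in old rats. All newborn rats were above all older rats, with a gap of over 1 on the log2 scale, and adult and old rats overlapped. The excess was 5.29-fold over adult rats (log2 difference 2.40 ± 0.12 SE, 2.24 relative to all probes, adjusted p = 2.73e-14) and 4.70-fold over old rats (2.23 ± 0.12, 2.26 relative to all probes, adjusted p = 1.58e-13). L1 exceeded the old rats by 1.82 within the shared scan day (adjusted p = 0.000108). The sequence that gave this change was, on the plus strand of rn3 (chr12:22574089-22574148):
Fzd9 probe: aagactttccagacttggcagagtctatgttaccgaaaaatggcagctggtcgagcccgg

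Fzd2, a receptor used by Wnt5a among others, was also highest in newborn rats. Levels were 4.20 to 4.89 in newborn rats (median 4.50), 2.93, 3.12, 3.19 and 3.24 in adult rats and 3.41, 3.44, 3.44 and 3.50 in old rats. No group overlapped another: newborn rats were highest and adult rats lowest. Newborn rats exceeded adult rats 2.61-fold (log2 difference 1.39 ± 0.08 SE, 1.22 relative to all probes, adjusted p = 3.99e-13) and old rats 2.08-fold (1.06 ± 0.08, 1.08 relative to all probes, adjusted p = 7.5e-11; 1.15 for L1 within the shared day, adjusted p = 9.24e-05). Adult minus old rats gave −0.33 ± 0.10 (adjusted p = 0.00943) and only −0.16 relative to all probes. It was lost without any 1 of 19 of the 27 rats (adjusted p from 0.0101 to 0.0433) and with the 75th percentile (0.0504), quantile normalization (0.0756), normexp followed by quantile normalization (0.717) or a random block for slide (0.0327) or scan day (0.0555).

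Fzd4, the receptor of Norrin in the growth of retinal vessels, went the other way. It was above background on 12 of 19 newborn arrays and on all adult and old arrays. Its level was −2.38 to −1.06 in newborn rats (median −1.55), 0.21, 0.32, 0.35 and 0.46 in adult rats and −0.63, −0.55, −0.40 and −0.29 in old rats. The 3 ages were fully separated, with adult rats highest. Newborn minus adult rats gave −1.98 ± 0.19 (SE, 3.94-fold and at least 3.75-fold as a lower bound, −2.14 relative to all probes, adjusted p = 1.62e-09) and newborn minus old rats −1.18 ± 0.19 (2.26-fold and at least 2.15-fold, −1.15 relative to all probes, adjusted p = 6.56e-06; −1.14 for L1 within the shared day, adjusted p = 0.00164; −0.25 with normexp followed by quantile normalization). The log2 difference of adult minus old rats was 0.80 ± 0.24 (1.74-fold, 0.97 relative to all probes, adjusted p = 0.00644). It was lost without adult rat 13, 15 or 16 or old rat 17, 18 or 19 (adjusted p from 0.0119 to 0.0202), and with slide (0.0178) or scan day (0.0365) as a random block. In the endothelial marker list the summed level of 5 genes was 58.3 to 165 in newborn rats, 32.0 to 39.1 in adult and 71.5 to 86.3 in old rats, with the highest signal from Cldn5, Tek above background on no array at any age and Pecam1 and Cdh5 on no adult array. Its part in the result for Fzd4 was not tested.

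Fzd3, which steers growing axons, was at −0.44 to 1.19 in newborn rats (median 0.81), 0.99, 1.09, 1.09 and 1.38 in adult rats and 0.34, 0.40, 0.43 and 0.51 in old rats. Adult rats were above old rats without overlap and above 16 of 19 newborn rats. Newborn minus adult rats gave −0.61 ± 0.09 (SE, 1.53-fold, adjusted p = 3.92e-06) and adult minus old rats 0.72 ± 0.12 (1.65-fold, adjusted p = 2.78e-05). The former was lost with litter means as the newborn replicates (adjusted p = 0.0348) and in the methods' t-test (0.069). Against old rats the difference was 0.10 (adjusted p = 0.332), but it had the opposite sign for L1 alone within the shared scan day (−0.74, adjusted p = 0.000266).

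Fzd1 was 1.34-fold higher in newborn than in old rats (log2 0.43 ± 0.11 SE, adjusted p = 0.00221, with 15 of 19 newborn rats above every old rat), which was lost without old rat 18 or 20 (adjusted p = 0.0108 and 0.0105), when each litter entered as a single mean (0.0475) or scan day as a random block (0.0156), and was 0.13 for L1 within the shared day (adjusted p = 0.26). Fzd5 was above background on 11 of 19 newborn, 3 adult and 1 old array. It was expressed only in L1, L2 and L3, so no difference between the ages is given. For Fzd7 the brighter probe gave 0.21 (adjusted p = 0.109) and 0.32 (adjusted p = 0.0169) in newborn against adult and old rats, the latter passing without L4 rat 32 (adjusted p = 0.00123) and with quantile normalization (0.00721), and the second probe was above background on no array.

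**Figure D3:**
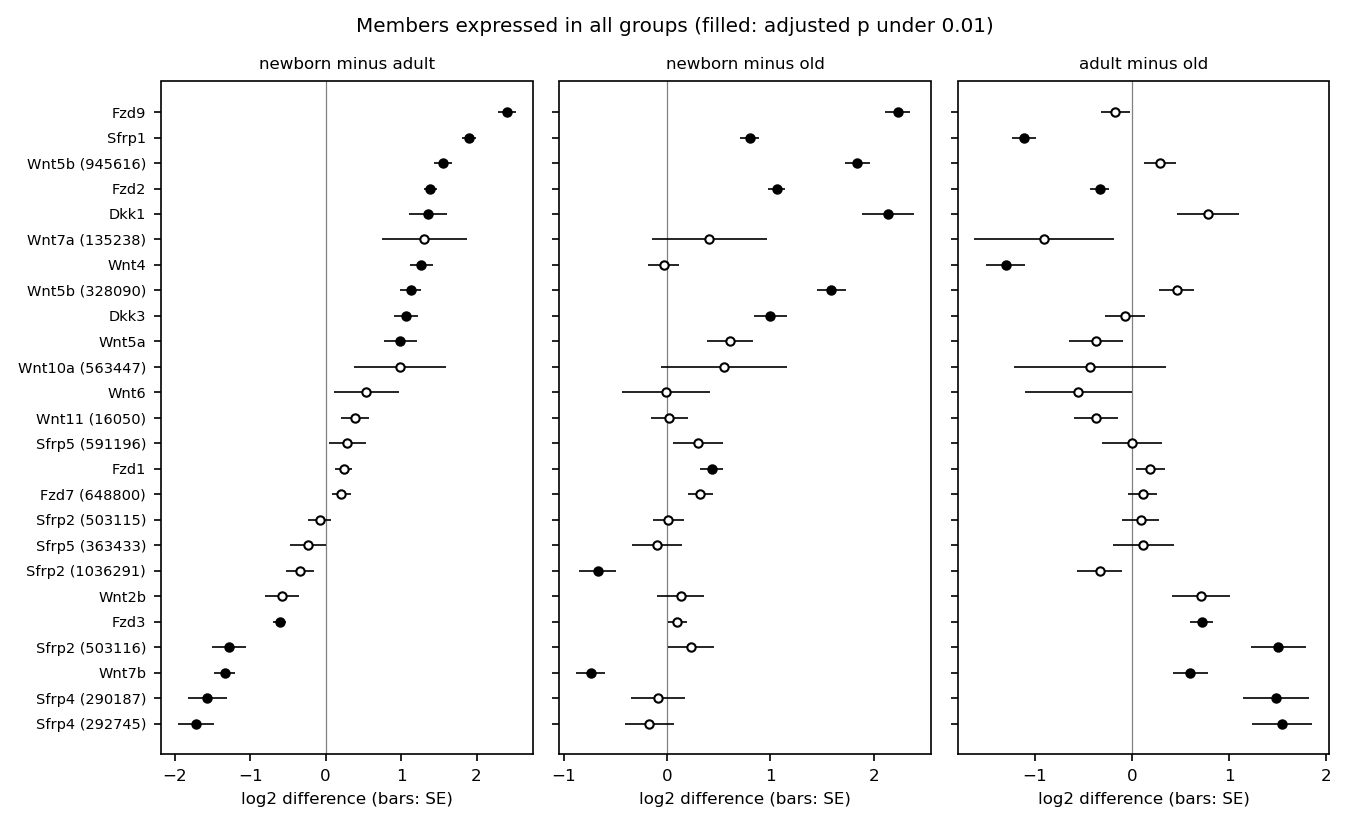
Log2 difference between the ages for the 25 member probes expressed in all 6 groups, with bars for the SE, in newborn minus adult, newborn minus old and adult minus old rats. Filled points have an adjusted p under 0.01, and the numbers after a gene name tell its probes apart. Fzd9 lies farthest to the right in newborn minus adult rats, at 2.40, and a Sfrp4 probe farthest to the left, at −1.72.

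Among the antagonists, Sfrp1, which binds Wnt proteins outside the cell, separated all 3 ages. It lay between 5.29 and 6.44 in newborn rats (median 5.95), at 3.84, 3.92, 4.04 and 4.19 in adult rats and at 5.02, 5.02, 5.19 and 5.20 in old rats. No 2 ages overlapped, with newborn rats highest and adult rats lowest. Newborn rats exceeded adult rats 3.73-fold (log2 difference 1.90 ± 0.09 SE, 1.74 relative to all probes, adjusted p = 2.55e-14) and old rats 1.74-fold (0.80 ± 0.09, 0.82 relative to all probes, adjusted p = 1.11e-07). L1 alone exceeded the old rats by 0.46 within the shared scan day (adjusted p = 0.00831). Old rats were 2.15-fold above adult rats (adult minus old −1.11 ± 0.12, −0.94 relative to all probes, adjusted p = 7.73e-08).

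Sfrp4, a relative known for its part in bone turnover, was high in adult rats. The probe with the highest signal gave 1.06 to 3.50 in newborn rats (median 2.59), 3.11, 3.88, 4.22 and 4.90 in adult rats and 1.62, 2.82, 2.85 and 2.88 in old rats. Adult rats were above old rats without overlap and above 16 of 19 newborn rats. Newborn minus adult rats gave −1.57 ± 0.26 (SE, 2.97-fold, −1.73 relative to all probes, adjusted p = 1.21e-05) and adult minus old rats 1.48 ± 0.34 (2.80-fold, 1.65 relative to all probes, adjusted p = 0.000707; 0.0105 with scan day as a random block, 0.0142 with only these groups in the fit and 0.0405 in the methods' t-test). A second Sfrp4 probe gave −1.72 (adjusted p = 1.04e-06) and 1.55 (adjusted p = 0.000191; 0.0305 in the methods' t-test) in these comparisons. The third, named Sfrp4 as well but elsewhere on rn3 chromosome 17 (chr17:53036016-53036075 against chr17:53124820-53124879), was above background on no array.

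For Sfrp2 the 3 probes did not give the same picture. The brightest showed no called change (newborn minus adult −0.08, adjusted p = 0.614; adult minus old 0.09, adjusted p = 0.7), but L1 alone lay below the old rats within the shared scan day (−0.73, adjusted p = 0.00684; 0.01 for all newborn rats). The second differed between newborn and old rats (−0.67 ± 0.18 SE, adjusted p = 0.00211, with 18 of 19 newborn rats below the old mean), which was lost without old rat 17 or 20 (adjusted p = 0.0196 and 0.0154), with scan day as a random block (0.016) and for L1 within the shared day (−0.85, adjusted p = 0.0157). The dimmest gave −1.36 to 1.41 in newborn rats (median 0.50), 1.03, 1.39, 1.72 and 2.08 in adult rats and −0.34, −0.11, 0.07 and 0.55 in old rats. On that probe adult rats were above all old rats and above 16 of 19 newborn rats. The differences were −1.28 ± 0.22 (SE, 2.43-fold, adjusted p = 1.73e-05; 0.0121 in the methods' t-test) in newborn minus adult and 1.51 ± 0.28 (2.85-fold, adjusted p = 9.21e-05) in adult minus old rats. The brightest and the dimmest probe lie 12 bases apart on the plus strand of rn3 chromosome 2 (chr2:175436835-175436894 and chr2:175436763-175436822), and they are shown because neighbouring sequences gave different results; 19 of 60 bases of the former and 15 of 60 of the latter are G or C.
Sfrp2 brightest probe: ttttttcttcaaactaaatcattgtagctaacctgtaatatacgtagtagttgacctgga
Sfrp2 dimmest probe: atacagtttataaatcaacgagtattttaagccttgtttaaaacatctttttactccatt

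The brighter Sfrp5 probe was not called in an age comparison, with changes of 0.29 (adjusted p = 0.273), 0.30 (0.275) and 0.00 (0.993).

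Dkk1, which blocks the co-receptors Lrp5 and Lrp6 and is itself a known target of beta-catenin, was high in newborn rats. Its level was 2.09 to 4.33 in newborn rats (median 2.71), 1.04, 1.23, 1.72 and 2.0 in adult rats and 0.38, 0.42, 0.86 and 1.19 in old rats. All newborn rats were above all older rats, and adult and old rats overlapped. The excess was 2.56-fold over adult rats (log2 difference 1.36 ± 0.25 SE, 1.19 relative to all probes, adjusted p = 4.2e-05) and 4.41-fold over old rats (2.14 ± 0.25, 2.17 relative to all probes, adjusted p = 8.89e-08; 2.47 for L1 within the shared day, adjusted p = 0.0015). Adult minus old rats gave 0.78 and missed the threshold (adjusted p = 0.0427).

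Dkk3, a divergent relative whose tie to Wnt reception is less clear, gave 2.80 to 3.87 in newborn rats (median 3.50), 1.63, 2.24, 2.44 and 3.03 in adult rats and 2.01, 2.45, 2.46 and 2.68 in old rats. Newborn rats were above all old rats, and 17 of 19 were above every adult rat. The excess was 2.09-fold over adult rats (log2 difference 1.07 ± 0.16 SE, 0.90 relative to all probes, adjusted p = 3e-06) and 2.0-fold over old rats (1.0 ± 0.16, 1.03 relative to all probes, adjusted p = 9.1e-06; 0.68 for L1 within the shared day, adjusted p = 0.00695).

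The gene that the array calls Dkk4 has an uncertain identity. Both of its probes lie on rn3 chromosome 2, the array's description of the second names Dkk2, and the RefSeq table of the GRCr8 assembly has Dkk2 on chromosome 2 and Dkk4 on chromosome 16. The first probe was above background on 18 of 19 newborn, 4 of 8 adult and 1 of 8 old arrays. Its level was −2.51 to −0.05 in newborn rats (median −1.09), −2.61, −2.40, −1.96 and −1.93 in adult rats and −3.28, −2.77, −2.72 and −2.57 in old rats. Newborn rats were above all old rats, and 17 of 19 above every adult rat. The probe was expressed only in the 4 litters. As a lower bound the excess of all litters together was at least 1.87-fold over adult and at least 1.96-fold over old rats, and with normexp followed by quantile normalization the log2 differences were only 0.29 and 0.38. For L1 alone within the shared day the excess over old rats was below that bound (log2 0.89) and not called (adjusted p = 0.0145). The second probe was above background on no array. Both sequences are printed because they decide which gene was measured, on the plus strand at chr2:229620874-229620933 and chr2:229594034-229594093.
First probe named Dkk4: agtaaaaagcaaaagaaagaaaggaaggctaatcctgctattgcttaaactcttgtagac
Second probe named Dkk4: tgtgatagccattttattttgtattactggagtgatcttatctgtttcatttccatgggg

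Many changes were smaller under another background correction. Of 43 called changes of members, 23 were over 1.5 times smaller with normexp (offset of 50 intensity units) followed by quantile normalization, and 0 of these changed direction. The share over all probes was not computed, so nothing particular to the members can be read from this count. It also includes probes not expressed in all 6 groups (Wnt2, Wnt9a, Fzd4, Fzd5 and the probe named Dkk4). With quantile normalization alone 0 of the 43 were over 1.5 times smaller, and the offset was not varied by itself. With normexp and quantile normalization the log2 difference of newborn minus adult rats was 1.35 in place of 2.40 for Fzd9, −0.71 in place of −1.98 for Fzd4 and −0.66 in place of −1.34 for Wnt7b. All of these were called in that setting too (the highest adjusted p was 5.62e-10, for Wnt7b), whereas 3 of the 43 were not, Fzd2 in adult against old rats (−0.04, adjusted p = 0.717) and Fzd5 in newborn against adult and old rats (adjusted p = 0.0202 and 0.0121).

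Pups of different litters also differed. Of the 25 member probes 11 were called among the 4 litters (F test in limma), against 36.3% of all probes. The mean level of Fzd3 was −0.32 in L1 and between 0.63 and 1.0 in the other litters (adjusted p = 2.8e-08), and all 4 pups of L1 lay below every other pup. Wnt2b (−0.40 in L1, 0.99 in L4, adjusted p = 0.00148), the brightest Sfrp2 probe (2.51 and 3.61, adjusted p = 7.75e-05) and Sfrp1 (5.57 and 6.19, adjusted p = 0.000916) were also lowest in L1. Fzd9 (1.53 in L1, 2.42 in L2, adjusted p = 0.000249) and Wnt5b (4.34 and 5.12, adjusted p = 0.000711) had their highest mean in L2. L1 was alone on its slide and shared no scan day with another litter, so that litter and slide cannot be told apart for it. With L2, L3 and L4 alone, 1 of the 25 was called (6.13% of all probes), the brighter Wnt5b probe. With slide as a random block 3 of the 25 were called (18.7% of all probes). Among the genes named here, that block lost the calls for Fzd9 (adjusted p = 0.013), Wnt2b (0.021), Sfrp1 (0.024) and the brighter Wnt5b probe (0.0221). On the slide that held a pup each of L2 and L3, the level was 5.10 and 4.75 for this Wnt5b probe and 0.84 and 0.81 for Fzd3.

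The other genes of the pathway were taken from 6 lists by function. The groups compared did not overlap in any of the called changes quoted for them in the Results, except for Axin2 and Ctnnb1 in newborn against adult rats. Most of these genes were named for their calls and large changes in the same data, so this separation adds no support. Its share over all probes was not computed. For receptor partners and surface regulators, 10 of the 12 genes found on the array (16 listed) were expressed in all groups; 3 of these were higher and 3 lower in newborn than in adult rats (39.3% and 26.3% of all probes), and 3 higher and 4 lower than in old rats (28.1% and 31.3%). Between adult and old rats 0 were higher and 1 lower in adult rats (15.5% and 30.8%). Gpc3, a surface proteoglycan, was 9.41-fold higher in newborn than in adult rats (adjusted p = 1.27e-18) and 5.36-fold higher than in old rats (9.92e-17). Ror2, a receptor for Wnt5a, was 2.36-fold higher in newborn than in adult rats (adjusted p = 5.02e-06). Lgr5, a receptor of R-spondins that marks many stem cells, was above background on 8 of 19 newborn, 3 adult and 7 old arrays, and no difference between the ages is given for it.

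Of the secreted regulators, 7 of the 8 genes found on the array (16 listed) were expressed in all groups, with 3 higher in newborn than in adult rats (39.3% of all probes), 2 higher and 2 lower in newborn than in old rats (28.1% and 31.3%), and 2 higher and 2 lower in adult than in old rats (15.5% and 30.8%). Cthrc1, a secreted Wnt cofactor, was 4.42-fold higher in newborn than in adult rats (adjusted p = 5.19e-09), 34.8-fold higher than in old rats (1.79e-15) and 7.87-fold higher in adult than in old rats (6.57e-09). Wif1, a secreted inhibitor, was 3.70-fold higher in newborn than in old rats (adjusted p = 4.09e-08) and 2.17-fold higher in adult than in old rats (0.00121; 0.0157 with scan day as a random block). The antagonist Sostdc1 was 2.64-fold higher in newborn than in adult rats (adjusted p = 0.000156), and Rspo1, which strengthens Wnt signals, was 2.92-fold lower in adult than in old rats (adult minus old −1.55, adjusted p = 2e-05).

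Of the cytoplasmic genes, 16 of the 18 found on the array (19 listed) were expressed in all groups, and 9 were higher and 2 lower in newborn than in adult rats (39.3% and 26.3% of all probes). Against old rats 5 were higher and 2 lower (28.1% and 31.3%), and in adult against old rats 2 and 4 (15.5% and 30.8%). Ctnnb1, the gene of beta-catenin, had a mean level of 6.14 ± 0.14 in adult (SD, n = 4) and 5.47 ± 0.20 in old rats and a newborn median of 5.33; it was lower in newborn than in adult rats (−0.78, adjusted p = 3.67e-06) and higher in adult than in old rats (0.66, adjusted p = 0.000829). Dact1, which binds Dishevelled, was 2.37-fold higher in newborn than in adult (adjusted p = 8.28e-09) and 3.59-fold higher than in old rats (1.62e-11). The kinase gene Csnk1a1 was 2.0-fold higher in newborn than in adult rats (adjusted p = 5.15e-12). Dixdc1, never above background in adult and old rats, was at least 2.25-fold and at least 2.01-fold higher in newborn rats.

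Of the nuclear factors, 7 of the 8 found on the array (13 listed) were expressed in all groups; 3 were higher and 1 lower in newborn than in adult rats (39.3% and 26.3% of all probes), 1 higher and 0 lower than in old rats (28.1% and 31.3%), and 1 higher and 1 lower in adult than in old rats (15.5% and 30.8%). Lef1, a partner of beta-catenin on DNA and not among these 7, was above background on 5 of 8 old arrays and all others. It was 1.93-fold higher in newborn than in adult rats (adjusted p = 4.55e-07), and newborn and adult rats exceeded old rats at least 3.44-fold and 1.78-fold. Tle4, a corepressor, was 2.41-fold higher in adult than in old rats (adjusted p = 2.88e-05). In the planar polarity branch, 6 of the 8 genes found on the array (10 listed) were expressed in all groups and 4 were higher and 1 lower in newborn than in adult rats (39.3% and 26.3% of all probes), 3 and 0 than in old rats (28.1% and 31.3%), and 0 and 1 in adult than in old rats (15.5% and 30.8%). Prickle1 was 2.52-fold and Daam2 2.01-fold higher in newborn than in adult rats (adjusted p = 1.08e-07 and 6.05e-07), and 3.56-fold and 2.61-fold higher than in old rats (8.46e-10 and 5.69e-09).

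Of the genes known as targets of the beta-catenin branch, 11 of the 14 found on the array (16 listed) were expressed in all groups. Compared with adult rats, newborn rats had 7 higher and 1 lower (39.3% and 26.3% of all probes). Compared with old rats, they had 5 higher and 2 lower (28.1% and 31.3%), and between adult and old rats 1 was higher in adult rats and 3 lower (15.5% and 30.8%). Their median log2 change was 0.60, −0.01 and −0.60 in these comparisons, against 0.15, −0.03 and −0.18 for all probes expressed in all groups. Axin2, the most widely used readout of this branch, had a newborn median of 1.46, an adult mean of 0.97 ± 0.16 (SD, n = 4) and an old mean of 1.57 ± 0.23. It was higher in newborn than in adult rats by 0.48 (adjusted p = 0.0098), which was lost in leaving out any 1 of 24 of the 27 rats, and its adult minus old difference of −0.60 missed the threshold (adjusted p = 0.0165) with all adult below all old rats, and passed it without L2 rat 24 (0.00885) or L3 rat 28 (0.00445). Sp5 was lowest in adult rats, where 1 of 8 arrays was above background (at least 2.44-fold lower than in newborn and at least 2.84-fold lower than in old rats). Myc was 3.80-fold and Ccnd1 2.42-fold higher in newborn than in adult rats (adjusted p = 6.25e-11 and 1.6e-08), Myc was 4.78-fold and Wisp1 4.23-fold higher in newborn than in old rats (6.51e-12 and 6.62e-10), Wisp1 was 2.40-fold higher in adult than in old rats (7.45e-05) and Ascl2 2.59-fold lower (adult minus old −1.37, adjusted p = 2.52e-06).

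The core of the binding site of Tcf and Lef factors, CTTTGA, was searched on both strands in the 300 bases from 250 before to 50 after the start of each gene in RefSeq's table for GRCr8. Of the 23 member genes in that table, 3 held it (Dkk1, Fzd7 and Wnt8a), against 16.1% of all 33469 promoters of the same length. The promoters of Dkk1 and Fzd7 hold it on both strands and are printed for this reason, with the matches in capitals (GRCr8 chr1:237798601-237798900, minus strand, and chr9:68425288-68425587, plus strand). A match describes the letters and shows no binding.
Dkk1 promoter: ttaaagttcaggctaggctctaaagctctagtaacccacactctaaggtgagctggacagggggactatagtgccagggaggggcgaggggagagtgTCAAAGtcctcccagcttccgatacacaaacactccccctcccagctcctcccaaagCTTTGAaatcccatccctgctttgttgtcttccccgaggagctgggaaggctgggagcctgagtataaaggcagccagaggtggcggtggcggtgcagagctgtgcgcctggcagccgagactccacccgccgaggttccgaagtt
Fzd7 promoter: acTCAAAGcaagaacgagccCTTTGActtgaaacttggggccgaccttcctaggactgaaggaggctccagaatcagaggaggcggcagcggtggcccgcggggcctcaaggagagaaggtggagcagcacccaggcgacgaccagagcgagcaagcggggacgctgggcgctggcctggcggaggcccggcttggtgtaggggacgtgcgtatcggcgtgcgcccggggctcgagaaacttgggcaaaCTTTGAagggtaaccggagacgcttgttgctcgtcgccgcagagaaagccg

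Markers of several cell types moved with age as well, and their part in the results for the members was not tested. The summed level of the 8 markers of mature olfactory sensory neurons (highest signal Gnal), in multiples of the array median, was 258 to 536 in newborn rats (median 440), 1830, 1520, 1660 and 1350 in adult rats and 2240, 2530, 2040 and 2810 in old rats. All 8 were called lower in newborn than in adult and old rats (26.3% and 31.3% of all probes). The 7 cycling cell markers (highest signal Cdk1) summed to 373 to 638 in newborn rats (median 487), 99.4, 96.1, 130 and 123 in adult rats and 78.8, 72.2, 78.7 and 86.9 in old rats. All 7 were called higher in newborn than in adult and old rats (39.3% and 28.1% of all probes). For fibroblasts and mesenchyme (7 genes, highest signal Col1a1) the sum was 2660 to 6540 in newborn rats, 2130, 2930, 1990 and 3200 in adult and 703, 414, 551 and 365 in old rats. Of these genes, 6 were called higher in newborn than in adult rats (39.3% of all probes) and 7 than in old rats (28.1%). In adult rats 4 were called higher than in old rats (15.5%). The cartilage sum (6 genes, highest signal Col2a1) was 112 to 418 in newborn rats, 40.8, 58.8, 47.1 and 76.6 in adult rats and 18.9, 19.7, 17.2 and 20.5 in old rats, where Hapln1 was above background on no array. The osteoblast sum (7 genes, highest signal Bglap) was 647 to 2290 in newborn rats, 800, 1210, 780 and 1410 in adult rats and 495, 274, 480 and 395 in old rats, where Sp7 and Phex were above background on no array. Of the 5 osteoblast genes expressed in all groups, 0 were called higher and 2 lower in newborn than in adult rats (39.3% and 26.3%). Against old rats 4 were called higher and 1 lower in newborn rats (28.1% and 31.3%), and 3 and 1 in adult rats (15.5% and 30.8%).

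For the remaining lists the sums ran, in newborn, adult and old rats, from 1200 to 2580, 853 to 1030 and 713 to 916 for immature sensory neurons (highest signal Gng8) and from 374 to 865, 180 to 219 and 245 to 285 for globose basal cells (Hes6). They ran from 1810 to 4710, 2380 to 2920 and 5130 to 5740 for sustentacular cells (Krt18), and from 80.4 to 879, 182 to 319 and 244 to 360 for glia (Fabp7, with S100b above background on no array). For ciliated cells (Foxj1) they were 358 to 904, 356 to 520 and 615 to 678, for red cells (Alas2) 250 to 1050, 53.3 to 111 and 169 to 384, and for skeletal muscle (Tnni2) 17.3 to 414, 2.73 to 5.77 and 5.67 to 7.57. A sum follows its brightest genes and need not match the rest of its list. Old rats exceeded adult rats in the globose sum. Of its 4 genes expressed in all groups, 1 was called higher in adult rats and 0 lower (15.5% and 30.8% of all probes). Among immature neuron genes 5 were called higher and 1 lower in newborn than in adult rats (39.3% and 26.3%). In that comparison it was 1 and 2 for sustentacular genes and 3 and 1 for glia genes.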

How the data were processed

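The authors deposited scanner files with the intensity of each spot, made by the Agilent software as a signal with its background subtracted (release 9.5.1.1 for adult rats, 9.5.3.1 for the others). They also deposited a matrix of ratio values, in which the authors had set negative signals to 0.01, divided by the median of the array and then scaled each gene over all arrays, and it served as an alternative. From the scanner files, control spots and spots the software marked as outliers were left out, spots of a probe were averaged, and the result was divided by the array median over 41012 probes, floored at 0.01 and taken as log2. For adult and old rats the mean of both arrays was used. Python 3.11.15 (pandas 2.3.3, numpy 2.4.6, matplotlib 3.10.9) and R 4.3.3 with limma 3.58.1 were used. limma was fitted over 6 groups and 27 rats for all probes expressed in at least 1 group, with Benjamini-Hochberg adjustment over these probes, two-sided, and a call at an adjusted p under 0.01. The procedure was tested on simulated data in which the changed probes were known.

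Members and lists were chosen with earlier results of these data known. Genes were described in full if called with a fold of at least 2 between any ages, or if expressed in some groups and above background on no array of another, and a gene with several probes was represented by the brightest on average. Values of other members (among them Wnt5a, Fzd3, Wnt10a, Wnt7a and Wnt6) were added after they had been seen, as were the lower bounds for Fzd4, Lef1, Sp5 and the probe named Dkk4. Pathway genes were named under the same conditions, up to 4 per list and comparison, beside Ctnnb1, Axin2, Lef1 and Lgr5. Alternatives were another scaling, background correction, floor, filter, random blocks for slide, scan day or rat, the methods' t-test, litter means, only the groups compared, and each rat left out. The number of arrays limits the precision. Exon positions of probes were left out, since no annotation for rn3 was at hand.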

Additional observations from a re-analysis of the deposited data

Results flagged for a closer look

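In 83 groups of rats of a member probe, the highest or lowest rat was tested for its distance from the others of its group, and chance alone gives about 1 in 20 groups such a rat. It was found in 6. In L3, rat 29 had a level of −0.05 for the probe named Dkk4, against −1.24 to −1.09 in its litter, and rat 27 had 0.07 for Wnt7b, against −0.73 to −0.56. In L4, rat 34 had 3.35 for Wnt11, against 2.79 to 2.95, and rat 32 had −2.24 for Fzd4, against −1.65 to −1.49. Among old rats, rat 18 had 1.62 for Sfrp4, against 2.82 to 2.88, and rat 19 had −1.71 for Wnt9a, against −2.03 to −1.99.

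The 4 litters differed in the F test of limma for 12 member probes, 11 of them among the 25 expressed in all groups (36.3% of all such probes). With slide as a random block 3 of the 25 were called, beside 18.7% of all probes. The adjusted p was 2.8e-08 for Fzd3, 5.25e-05 and 7.75e-05 for Sfrp2 probes, 0.000249 for Fzd9, 0.000711 and 0.00115 for Wnt5b probes, 0.000916 for Sfrp1, 0.00148 for Wnt2b, 0.00229 and 0.00404 for Sfrp4 probes, 0.00404 for Sfrp5 and 0.00826 for a Wnt10a probe. The distance between the highest and lowest litter mean ran from 0.63 for Sfrp1 to 1.80 for an Sfrp2 probe among those 11, on the log2 scale. None is given for the Wnt10a probe, which was above background on 1 of 5 arrays of L2. The Wnt10a call was lost in leaving out any 1 of 17 of the 27 rats (adjusted p from 0.0101 to 0.0421), and with quantile normalization (0.0104), no filter on dim probes (0.0136), or slide (0.123) or scan day (0.0675) as a random block. L1 was the highest litter for this Wnt10a probe and the lowest for the others, and litter and slide cannot be told apart for L1.

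The adult spots of the brighter Wnt11 probe, which were left out as not uniform, reached an intensity of 225702. The cause was not tested.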

How the results depend on the processing

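The alternatives of L2, L3 and L4 alone, the same with scan day as a block, and the subtraction of the median change were added after the data were seen. The cause was not tested where a value moved, unless stated.

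In this paragraph a percentage in brackets is the share of all probes called in either direction under that setting. It shows how the setting moved calls and is not the match for a count in 1 direction. With the settings of the Results, 26.3% of all probes were lower in newborn than in adult rats and 31.3% lower than in old rats. The share higher in adult than in old rats was 15.5%. Members called lower in newborn than in adult rats numbered 5 (65.6%), and 3 in the methods' t-test (54.8%). Lower in newborn than in old rats were 2 (59.4%), against 1 with a random block for slide (52.1%), 1 for scan day (49.2%) and 1 in the methods' t-test (48.2%). With positive and significant spots as the only condition the number was 4 (55.6%). That setting held 36 member probes expressed in all groups in place of 25, among 28877 probes. Higher in adult than in old rats were 5 (46.3%), against 3 with scan day as a random block (33.9%) and 2 in the methods' t-test (39.6%). Among the 4 litters 11 were called (36.3%), against 3 with a random block for slide (18.7%) and 6 for scan day (25.7%). With L2, L3 and L4 alone 1 was called (6.13%), and 1 when scan day was a block as well (9.11%). Member probes above background on no array numbered 7, and 2 when only positive and significant was required, a weaker condition by construction. With each rat left out in turn, the calls ran from 9 to 9 higher and 5 to 6 lower (newborn against adult), 7 to 9 and 1 to 2 (newborn against old; 1 lower without old rat 17 or 20), 4 to 5 and 2 to 3 (adult against old) and 9 to 12 (litters). Over all probes the share called in either direction ran from 61% to 66.4%, 53.2% to 60.4% and 40.8% to 47.7% in these age comparisons. Among litters it ran from 29.9% to 37.8%.

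Direction was reversed in newborn against old rats with L1 alone within the shared scan day for Sfrp2 (−0.73) and Fzd3 (−0.74), neither called with all litters. In adult against old rats it was reversed for Wls with quantile normalization (0.07) and normexp followed by quantile normalization (0.29), and for Dvl1 with quantile normalization (0.01). Wls had been called lower in adult than in old rats (−0.42, adjusted p = 0.0091). That call was also lost in leaving out any 1 of 15 of the 27 rats (adjusted p from 0.0101 to 0.0345).

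Of the values for single member probes under these alternatives, 473 of 487 kept direction and side of the threshold in newborn against adult rats, 516 of 535 in newborn against old rats, 435 of 454 in adult against old rats and 349 of 399 among litters. With a rat left out these were 877 of 891, 908 of 918, 860 of 891 and 888 of 918. Signal over background limits what can be said of the dim members.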
